A study of Gallus gallus with 30 samples.

Results

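The cytochrome c oxidase subunits COX1, COX2 and COX3, cytochrome b (CYTB) and the ATP synthase subunits ATP8 and ATP6, all encoded by the mitochondrial genome, were followed as 6 transcripts in 30 chicken otocysts, the epithelial vesicles from which the inner ear forms. They were chosen by transcript identifier: COX1 is ENSGALT00000053568.1, COX2 is ENSGALT00000054328.1, ATP8 is ENSGALT00000054361.1, ATP6 is ENSGALT00000076413.1, COX3 is ENSGALT00000061564.1 and CYTB is ENSGALT00000053400.1. All 6 were found among the 28756 transcripts listed in every library, and all 6 passed the filter on low counts. The rule names identifiers and uses no measured value, though it was written with earlier results of these data known.

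White Leghorn embryos (Gallus gallus) gave 1 library per otocyst, in 5 sets of 3 embryos. In 9 embryos the right otic cup was electroporated in ovo, and the left otocyst of the same embryo stayed untransfected. The plasmid carried NICD1, the constitutively active intracellular domain of the NOTCH1 receptor, with the red fluorescent protein mRFP1, and the otocysts were taken after 6 h (embryos 12, 13 and 15, labelled E2.5) or 24 h (embryos 19, 21 and 22, labelled E3). The control plasmid carried mRFP1 alone and the otocysts were taken after 24 h (embryos 4, 23 and 24, E3). In the other 6 embryos, labelled E2.5, both otocysts were explanted. The right one was cultured with 10 µM LY411575, a γ-secretase inhibitor that keeps the intracellular domain from being released, and its left partner with DMSO, the solvent, for 6 h (embryos 1, 3 and 5) or 24 h (embryos 32, 33 and 34). Several inhibitor samples carry a label with another last digit in the compound's number, but the protocol names LY411575 alone, and all were taken as that compound. Transfection was mosaic, strongly transfected ears were chosen for sequencing, and all treated otocysts came from the right, so treatment and side cannot be told apart. In whole otocysts, fewer cells of a type and less RNA per cell cannot be told apart either.

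Background on these genes comes first. COX1, COX2 and COX3 form the catalytic core of cytochrome c oxidase, complex IV of the respiratory chain, which passes electrons to oxygen. CYTB is the mitochondrially encoded subunit of complex III, which passes electrons from ubiquinol to cytochrome c, and ATP6 and ATP8 belong to the membrane part of ATP synthase, where ATP6 forms the proton path. Mitochondrial DNA is transcribed as long precursors that are cut into separate messengers, mostly at the transfer RNAs that lie between the genes, so the levels of neighbouring messengers depend on processing and decay as well as on transcription. ATP8 and ATP6 are carried on a shared messenger in vertebrates.

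The lengths and order of the 6 genes were compared with the RefSeq annotation of the later assembly GRCg7b, whereas the libraries were quantified against GRCg6a. The 6 are among 13 protein-coding genes on that mitochondrial genome. The listed length equalled that of the RefSeq gene for 5 of them, 684 bases for COX2, 165 for ATP8, 684 for ATP6, 784 for COX3 and 1143 for CYTB, and COX1 was listed with 1548 bases, 3 fewer than in RefSeq. COX2 and ATP6 share a length, which therefore does not separate them. In RefSeq COX1 and COX2 have 2 transfer RNA genes between them and COX2 and ATP8 have 1, while ATP8 overlaps ATP6 by 10 bases and ATP6 overlaps COX3 by 1 base. All 180 estimated counts of the 6 transcripts were whole within 1e-06, so no count of theirs had been split with another listed transcript.

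Library depth was 8749489 to 18224622 estimated counts. HES5, a target of Notch, was read at 49.4 to 104 TPM (a transcript level corrected for transcript length and library depth) in the DMSO otocysts at 6 h and at 0 to 0.204 TPM in the LY411575 otocysts. At 24 h it was 8.39 to 17.2 TPM with DMSO and 0.363 to 0.883 TPM with LY411575. In the NICD1 sets mean HES5 was 95.3 TPM with NICD1 and 49.0 TPM on the left at 6 h. At 24 h it was 109.5 TPM with NICD1 and 40.2 TPM on the left. The ranges of NICD1 and left otocysts overlapped at both times. The 6 otocysts cultured for 24 h stood apart. The summed level of 5 markers of otic epithelium (CDH1, LMX1A, DLX5, SOX10 and TBX2) was 112 to 228 TPM there and 289 to 766 TPM in the other 24 libraries, and COL1A2, the only marker of mesenchyme measured here, was 11.6 to 34.9 TPM against 51.9 to 256 TPM. The mean fragment length, taken as listed minus effective length of long transcripts, was 199 to 243 bases there and 164 to 205 bases in the others.

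The 6 transcripts together took 0.663% to 3.08% of the estimated counts of a library, with a median of 2.02% (n = 30). In the 18 in ovo libraries the share was 1.67% to 3.08% and in the 6 libraries cultured for 6 h it was 1.87% to 2.37%, so these ranges overlap. After 24 h with DMSO it was 1.52%, 1.35% and 1.20% in embryos 32, 33 and 34, and after 24 h with LY411575 0.869%, 1.21% and 0.663%. Every library of 24 h culture lay below every other library. These shares rest on 66222 to 363187 counts, and the 95% Wilson interval of the lowest, 0.658% to 0.668%, covers counting error only and is far narrower than the spread between embryos.

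**Figure D1:**
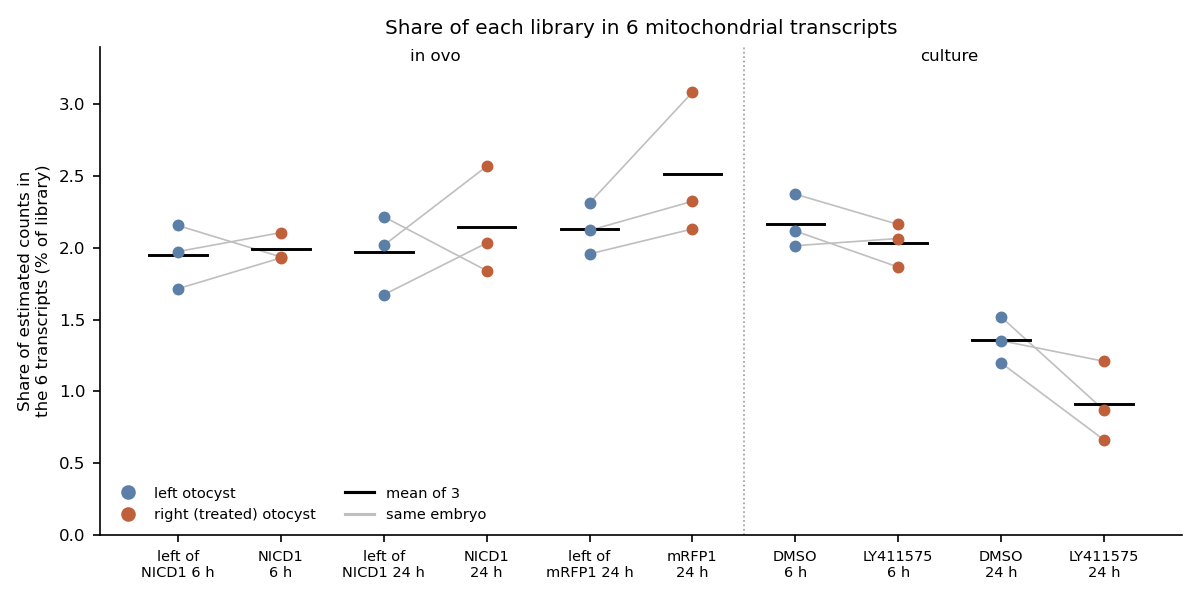
Share of the estimated counts of each library (percent) in the 6 mitochondrial transcripts, for the 10 groups. Points are single otocysts, blue left and orange right, grey lines join otocysts of 1 embryo and black bars are means of 3. The 6 otocysts of 24 h culture lie between 0.663% and 1.52%, below all others.

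COX3 had the highest TPM of the 6 and COX2 the second highest in all 30 libraries. The lowest place went to CYTB in 16 libraries, to COX1 in 12 and to ATP8 in 2. In ovo (n = 18) the lowest, median and highest TPM were 11245, 13524 and 18809 for COX3. They were 7460, 9558 and 11385 for COX2. Between these and the rest stood the ATP synthase subunits, with 5944, 8142 and 10911 for ATP8 and 6055, 7488 and 9753 for ATP6. COX1 had 5185, 6417 and 8452, and CYTB 3036, 5029 and 7258. The ranges of ATP8, ATP6 and COX1 overlap, as do those of COX1 and CYTB. COX3 was the most abundant of all 28756 transcripts by TPM in 23 of the 30 libraries, and COX1, for contrast, ranked 7 to 9 in ovo and 20 to 133 after 24 h of culture.

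**Figure D2:**
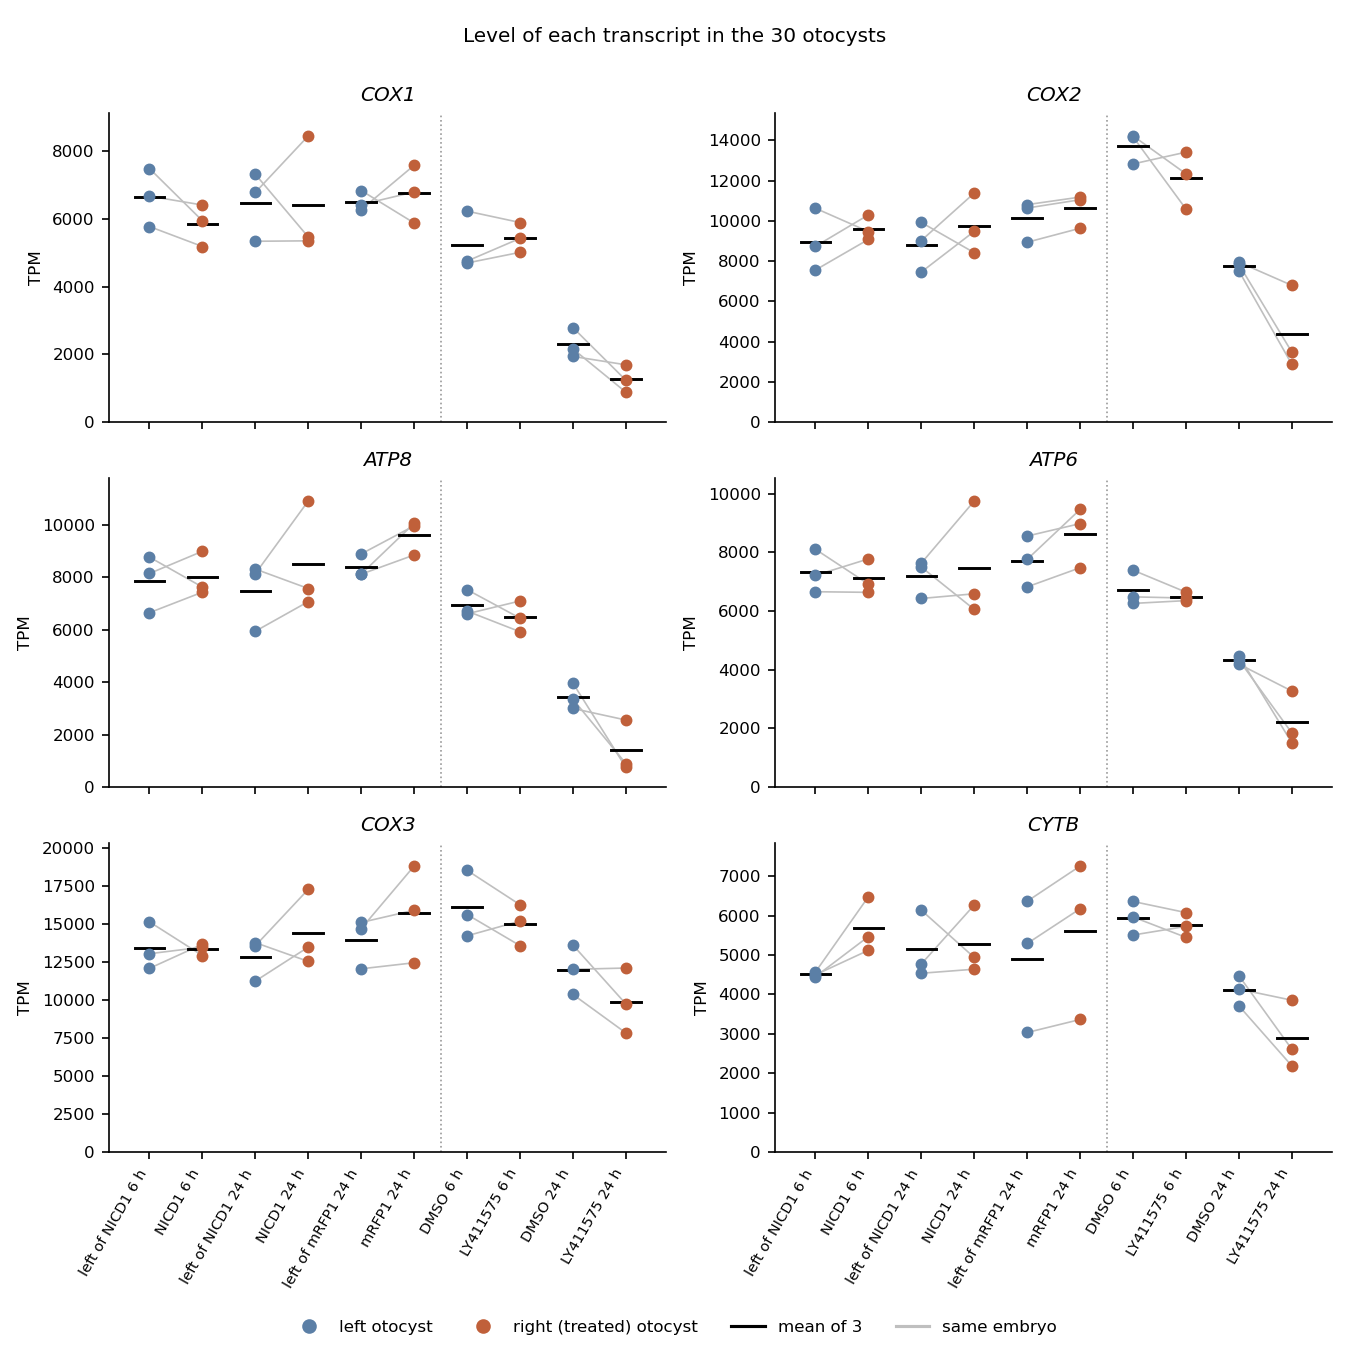
TPM of each of the 6 transcripts in the 30 otocysts by group, from 0. Points are single otocysts, blue left and orange right, grey lines join otocysts of 1 embryo, black bars are means of 3, and the dotted line separates in ovo from culture. COX1, ATP8 and ATP6 are low in both groups of 24 h culture, COX3 less so.

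CYTB was low in 1 in ovo embryo. In embryo 4 it was 3036 TPM on the left and 3365 TPM on the right, and in the other in ovo libraries 4452 to 7258 TPM. Both otocysts of this embryo were thus below all other in ovo otocysts. Its other 5 transcripts were not low: on the left they ranked between 4 and 5 from the top among the 18 in ovo libraries, and on the right COX2, ATP8, ATP6 and COX3 ranked 3 and COX1 ranked 13. CYTB made up 9.27% and 10.2% of the counts of the 6 in embryo 4 and 12.8% to 19.0% in the other in ovo libraries. Embryo 4 is 1 of the 3 embryos in the mRFP1 set.

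The question of the NICD1 sets is whether raised Notch activity changes expression. At 6 h the 6 transcripts did not pass the test, and of them CYTB stood highest. CYTB was 4498, 4570 and 4452 TPM on the left and 5120, 6480 and 5470 TPM on the NICD1 side in embryos 12, 13 and 15. The groups did not overlap and the right was higher in 3 of 3 embryos. Its log2 fold change was 0.38 ± 0.14 (SE), with adjusted p = 1 in edgeR's quasi-likelihood test. The other 5 lay between -0.13 ± 0.19 for COX1, which was lower on the right in 3 of 3 embryos, and 0.17 ± 0.21 for COX2. In this comparison edgeR called 0 of 6 members and 0% of the 21637 transcripts tested, with 1 member and 855 transcripts at an unadjusted p under 0.05. DESeq2 called 125 transcripts and limma-voom 3, none of them a member.

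At 24 h of NICD1 embryos went different ways. The share of the 6 transcripts was 2.03%, 1.84% and 2.57% on the right and 1.67%, 2.22% and 2.02% on the left in embryos 19, 21 and 22. The right was higher in embryos 19 and 22 and lower in embryo 21, and each of the 6 transcripts followed this pattern. The median log2 fold change of the 6 was 0.16, beside -0.02 over all transcripts. edgeR called 0 of 6 members and 0% of all transcripts, with 0 members and 577 transcripts at an unadjusted p under 0.05, while DESeq2 called 79 transcripts and limma-voom 1, none a member.

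The mRFP1 plasmid alone gave right-hand shares of 2.32%, 2.13% and 3.08% and left-hand shares of 2.12%, 1.96% and 2.31% in embryos 4, 23 and 24. The right was higher in 3 of 3 embryos, most in embryo 24, whose right otocyst held the highest share of all 30. COX1 alone had a lower share on the right in embryo 4 (ratio 0.936). Its geometric mean right per left ratio was 1.03 by TPM and 1.19 by edgeR's scaled counts, and that of ATP8 1.15 and 1.33. In edgeR all 6 log2 fold changes were positive, from 0.25 ± 0.19 for COX1 to 0.41 ± 0.28 for ATP8. CYTB had 0.40 ± 0.14 (adjusted p = 0.425) and COX3 0.37 ± 0.15 (adjusted p = 0.478). None passed: edgeR called 0 of 6 members and 0% of all transcripts, with 2 members and 2042 transcripts at an unadjusted p under 0.05. DESeq2 called 583 transcripts and limma-voom 0, none a member. The 24 h change with NICD1 minus that with mRFP1 was negative for all 6, with a median of -0.21. There edgeR called 0 members beside 0.00462% of all transcripts, with 0 members at an unadjusted p under 0.05. DESeq2 called 30 transcripts in that difference and limma-voom 1, none a member. Over the 9 in ovo pairs the right share was higher in 7.

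LY411575 for 6 h, asked as the effect of a brief loss of Notch activity, left the 6 transcripts close to their DMSO partners. The share was 2.16%, 2.07% and 1.87% with LY411575 and 2.37%, 2.02% and 2.12% with DMSO in embryos 1, 3 and 5. It was lower on the right in embryos 1 and 5 and higher in embryo 3, and the groups overlap. The log2 fold changes lay between -0.21 ± 0.21 for COX2 and 0.06 ± 0.19 for COX1, and COX2, ATP8 and ATP6 had a lower share of counts on the right in 3 of 3 embryos. edgeR called 0 of 6 members and 0.0786% of all transcripts, with 0 members at an unadjusted p under 0.05. DESeq2 called 132 transcripts and limma-voom 21, none a member.

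**Figure D3:**
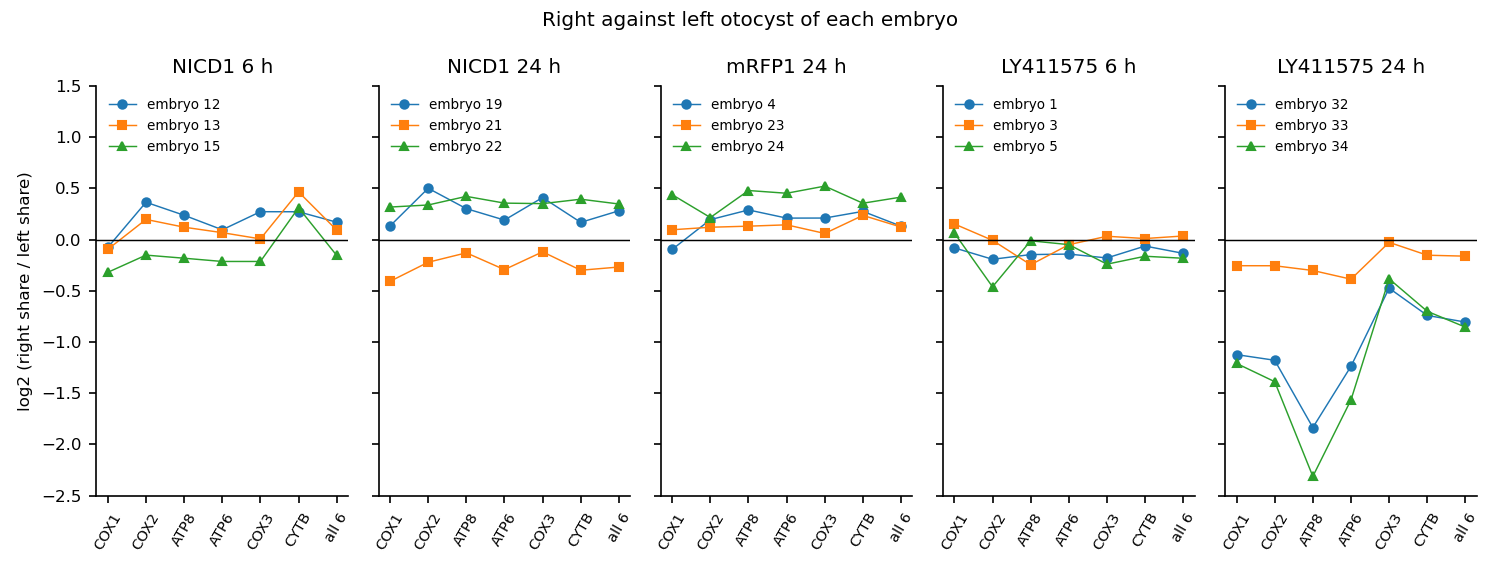
Log2 ratio of the right to the left share of the library for each transcript and for all 6 together, 1 panel per set and 1 line per embryo. After 24 h of LY411575 embryos 32 and 34 lie far below 0 for COX1, COX2, ATP8 and ATP6, with ratios down to 0.201 for ATP8, and embryo 33 lies close to 0.

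After 24 h of LY411575 COX1, COX2, ATP8 and ATP6 fell against DMSO and COX3 and CYTB did not pass the test. ATP8 had the largest estimated fall. Its listed 165 bases are fewer than the mean fragment length of every library of 24 h culture (199 to 243 bases). This is not particular to 24 h culture: 165 bases also lies near the low end of the range in the other libraries (164 to 205 bases). The part of fragment length in the size of its fall was not tested. ATP8 was 3349, 2999 and 3965 TPM with DMSO and 899, 2558 and 752 TPM with LY411575 in embryos 32, 33 and 34. The groups did not overlap, and embryos 32 and 34 were far lower on the right while embryo 33 was near its partner. ATP8 had a log2 fold change of -1.40 ± 0.30 (edgeR adjusted p = 0.0276).

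ATP6, the partner of ATP8 in ATP synthase, was 4330, 4193 and 4466 TPM with DMSO and 1844, 3273 and 1507 TPM with LY411575. The groups did not overlap here either, and the log2 fold change was -0.98 ± 0.20 (edgeR adjusted p = 0.0233). COX2, which holds the copper site that takes electrons from cytochrome c, was 7833, 7948 and 7507 TPM with DMSO and 3476, 6795 and 2867 TPM with LY411575. It fell by 0.86 ± 0.21 on the log2 scale (edgeR adjusted p = 0.0458). COX1, the subunit that reduces oxygen, was 2790, 1939 and 2160 TPM with DMSO and 1236, 1691 and 882 TPM with LY411575. All 3 of its LY411575 values lay below all 3 DMSO values, it fell by 0.78 ± 0.20 on the log2 scale, and its edgeR adjusted p of 0.0496 was just inside the threshold of 0.05.

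COX3 and CYTB differed less. COX3 was 13612, 12019 and 10366 TPM with DMSO and 9743, 12103 and 7836 TPM with LY411575, so that its groups overlap and embryo 33 was level. Its log2 fold change was -0.21 ± 0.15 (edgeR adjusted p = 0.553). CYTB was 4475, 4136 and 3710 TPM with DMSO and 2610, 3854 and 2188 TPM with LY411575, again with overlap, and its log2 fold change was -0.45 ± 0.14 (edgeR adjusted p = 0.110).

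Thus 4 of 6 members were called at 24 h, beside 3.4% of all transcripts, and the median member change was -0.82 beside -0.03 over all transcripts. DESeq2 called 5 members beside 2665 of 21637 transcripts, and limma-voom 3 members beside 798. The share of all 6 together had right per left ratios of 0.572, 0.894 and 0.553, and 3 pairs cannot go below p = 0.25 in an exact sign-flip test, which was the p here. The calls depended on which embryo was left out. Without embryo 32 edgeR called 0 members, without embryo 34 also 0, and without embryo 33 it called 5. The totals over all transcripts in these refits are not given here. A loss particular to the members therefore cannot be told from a general loss of calls. Leaving out embryos 32 and 34 together, chosen after seeing the data, kept only embryo 33 in the set, so its calls decide nothing. Fitted to this set alone with the replicate block, edgeR called 0 members and 0 of 18108 transcripts, so that fit says nothing particular to the members. With no replicate block (the embryo left out of the model) 2 members were called, beside 308 of 21637 transcripts. The 24 h change minus the 6 h change was negative for all 6, with a median of -0.75, and edgeR called 0 members beside 0.111% of all transcripts, with 4 members at an unadjusted p under 0.05. In that difference DESeq2 called 2 members beside 861 of 21637 transcripts, and limma-voom 0 members beside 27. Without embryo 33 edgeR called 4 members there. The total over all transcripts in that refit is not given here, so this count is no result about the members.

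Other values differed within these pairs too, not all of them in step with the members. The mean fragment length was 232, 205 and 243 bases in the LY411575 libraries and 201, 220 and 199 bases in the DMSO libraries of embryos 32, 33 and 34, so it was longer on the right in the 2 embryos in which the members were far lower. The number of transcripts with at least 1 count was 19917, 21176 and 19055 with LY411575 and 21282, 21176 and 20706 with DMSO. The summed otic markers were 112, 135 and 200 TPM with LY411575 and 214, 228 and 159 TPM with DMSO. This sum was lower on the right in embryos 32 and 33 and higher in embryo 34. COL1A2 was 14.2, 19.0 and 11.6 TPM against 34.9, 29.7 and 20.8 TPM, lower on the right in every pair. None of these 5 otic markers nor COL1A2 was called by edgeR in this comparison (0 of 6 genes, adjusted p 0.172 and above). The part of these values in the result was not tested.

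Culture itself was set against growth in ovo with left otocysts only, each comparison being between different embryos. Culture and in ovo groups differ in handling and in whether the other ear was electroporated, and at 24 h also in label (E2.5 and E3). In the study, E2.5 is the age at which otocysts were put in culture, whereas electroporation was at E2. By these ages the cultured otocysts were older at collection than their label. They were also older than the in ovo otocysts at both 6 h and 24 h. The DMSO groups at 6 h and 24 h, both labelled E2.5, differ in time in culture and so in age at collection. The in ovo groups at 6 h and 24 h differ in labelled age (E2.5 and E3) and in time after electroporation of the other ear. Differences within a comparison cannot be told apart. The comparisons also share libraries with each other and with those above. DMSO otocysts at 24 h held a mean share of 1.36% ± 0.16 (SD, n = 3), those at 6 h 2.17% ± 0.18 (n = 3), and left in ovo otocysts at 24 h 2.05% ± 0.23 (n = 6). The ranges of DMSO 24 h and in ovo 24 h did not overlap, with an exact permutation p of 0.0119, the smallest this design allows, and 0.0595 adjusted over the 5 left comparisons. Against DMSO 6 h the ranges did not overlap either, but 3 against 3 cannot go below p = 0.1 in an exact permutation test. In ovo, 24 h and 6 h otocysts had 2.05% and 1.95% (exact permutation p = 0.536).

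Between 6 h and 24 h of DMSO COX1, COX2, ATP8 and ATP6 were lower at 24 h. COX1 was 6229, 4755 and 4698 TPM at 6 h in embryos 1, 3 and 5 and no more than 2790 TPM at 24 h. COX1 fell by 0.99 ± 0.16 on the log2 scale (edgeR adjusted p = 0.00111). ATP8 fell by 0.86 ± 0.14 (edgeR adjusted p = 0.00106), COX2 by 0.67 ± 0.14 (edgeR adjusted p = 0.00447) and ATP6 by 0.48 ± 0.11 (edgeR adjusted p = 0.00668). COX3 had -0.26 ± 0.15 and CYTB -0.34 ± 0.22, neither called. These 4 of 6 stand beside 20.7% of 20710 transcripts called in that comparison, and 4 were called without each of the 6 embryos in turn. The totals over all transcripts in those 6 refits are not given here, so their counts are no result about the members. The summed otic markers with DMSO lay between 604 and 761 TPM at 6 h and between 159 and 228 TPM at 24 h, 5 of 5 of them called lower, and their part in the result was not tested.

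Against left in ovo otocysts of 24 h, DMSO 24 h called 3 of 6 members, all lower, beside 31.4% of all transcripts. COX1 was 5340 to 7318 TPM in the 6 in ovo otocysts, with a log2 fold change of -1.46 ± 0.15 (edgeR adjusted p = 2.08e-05). ATP8 had -1.22 ± 0.13 and ATP6 -0.79 ± 0.09. COX2, COX3 and CYTB were between -0.29 ± 0.12 and -0.15 ± 0.13 and did not pass. Without embryo 4, whose CYTB was low, CYTB was called too (edgeR adjusted p = 0.0424), and without embryo 19 (0.0340) or 23 (0.0496) COX2 was. Over all transcripts edgeR called 6601 of 21378 without embryo 4, 6361 of 21486 without embryo 19 and 5923 of 21443 without embryo 23. In the main fit it called 6498 of 20710.

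At 6 h of culture COX2 was higher than in ovo and the other 5 members did not pass the test. COX2 was 14226, 12832 and 14176 TPM with DMSO and 7560, 8736 and 10627 TPM in left in ovo otocysts, without overlap, and its log2 fold change was 0.53 ± 0.14 (edgeR adjusted p = 0.0309). COX1 had -0.44 ± 0.16 (edgeR adjusted p = 0.108). Of the members 1 was called beside 9.55% of all transcripts, and this call was lost without embryo 12, 13, 1, 3 or 5. Calls over all transcripts also fell, from 1978 of 20710 to 1193 of 21512 without embryo 12 and 694 of 21417 without embryo 13. Without embryo 15, where the COX2 call stayed, they were 1516 of 21485. The totals without embryos 1, 3 and 5 are not given here, so the lost call is no result particular to COX2. In ovo 24 h against 6 h called 0 of 6 members and 0% of all transcripts, with 0 members and 1135 transcripts at an unadjusted p under 0.05. DESeq2 called 103 transcripts there, none a member, and limma-voom 0. The left otocysts of the mRFP1 and NICD1 sets at 24 h gave 0 members and 0.00483% of all transcripts called by edgeR. In that comparison 0 members had an unadjusted p under 0.05, and DESeq2 called 41 transcripts and limma-voom 0, none a member.

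**Figure D4:**
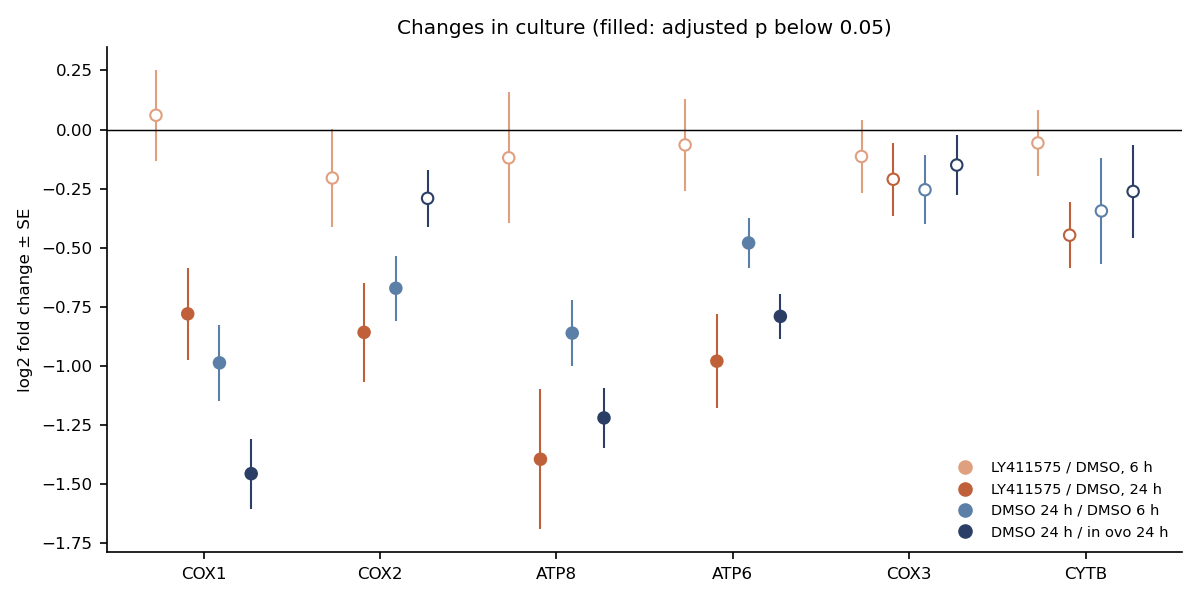
Log2 fold change ± SE (edgeR) of the 6 transcripts in 4 comparisons, in the gene order of the mitochondrial genome. Filled points passed an adjusted p of 0.05. COX1, ATP8 and ATP6 are filled in 3 of the 4 comparisons, COX3 lies between -0.26 and -0.11 in all.

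The 6 transcripts did not keep a fixed proportion to each other. The TPM ratio of COX3 to COX1 was 1.83 to 2.71 in ovo, 2.71 to 3.33 after 6 h of culture, 4.80 to 6.20 after 24 h with DMSO and 7.16 to 8.88 after 24 h with LY411575. COX1 made up 24.9% to 30.5% of the counts of the 6 in ovo and 12.3% to 17.1% in 24 h culture, where COX3 made up 32.8% to 45.4%. The log2 ratio of COX3 to COX1 was 2.39 ± 0.21 (SD, n = 3) with DMSO at 24 h and 1.04 ± 0.13 (n = 6) in left in ovo otocysts at 24 h, with an exact permutation p of 0.0119 (0.0595 adjusted over the 5 left comparisons). Within embryos the ratio was higher on the right in 8 of 9 in ovo pairs (right per left 0.976 to 1.26), in 0 of 3 pairs of 6 h culture (0.814 to 0.936) and in 3 of 3 pairs of 24 h culture (1.16, 1.62 and 1.85). A shift in proportions of this kind does not show that COX3 itself stayed level.

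**Figure D5:**
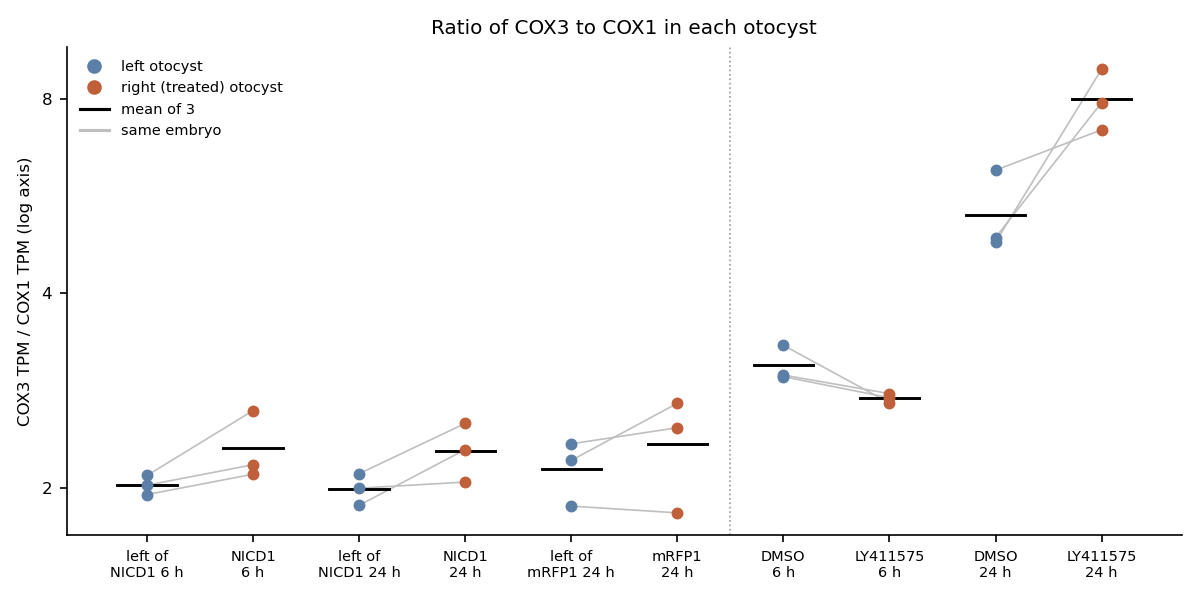
Ratio of the TPM of COX3 to that of COX1 in each otocyst, on a log axis, by group. Points are single otocysts, blue left and orange right, grey lines join otocysts of 1 embryo and bars are means of 3. The ratio is 1.83 to 2.71 in ovo and 7.16 to 8.88 after 24 h of LY411575.

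Spread between the 3 embryos of a group also differed by transcript. The pooled SD of the log2 share within groups was 0.231 for COX3, 0.251 for COX1, 0.254 for ATP6, 0.271 for COX2, 0.318 for CYTB and 0.348 for ATP8. For COX1, COX2, ATP8 and ATP6 the LY411575 24 h group had the largest SD of the 10, 0.929 for ATP8, and for COX3 and CYTB it was the mRFP1 group. The effective length of ATP8, by which its TPM was scaled, was 53.5 to 61.6 bases, and that of COX2 and ATP6 445 to 521 bases.

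Across the 30 libraries log2 CPM of ATP8 and ATP6, the pair on a shared messenger, had a Pearson r of 0.98, and of 0.94 without the 6 libraries of 24 h culture (n = 24). COX1 and ATP6 had 0.96 and 0.90. CYTB and ATP8 had 0.70 and 0.31, and COX1 and COX2 0.79 and 0.23. These are descriptions over libraries that share embryos and depth scaling. Of 10 transcripts outside the 6 with the profile most like their mean, ND5, SLC39A8 and PCP4 have a name in the study's tables. Their r was 0.94 (rank 5), 0.92 (rank 6) and 0.91 (rank 9). Ranks 1 to 4, above ND5, have no name there and were not identified here. They are ENSGALT00000063913.1 (r = 0.96, 1378 bases), ENSGALT00000068151.1 (r = 0.95, 522 bases), ENSGALT00000079811.1 (r = 0.94, 297 bases) and ENSGALT00000080481.1 (r = 0.94, 975 bases). ND5 had an r of 0.58 without 24 h culture. In those 24 libraries CYTB had 0.43 and COX2 0.54 with the mean of the other 5 members, while COX1, ATP8, COX3 and ATP6 had 0.75 to 0.88. ND3, another mitochondrial transcript, had an r of 0.20 with the mean of the 6 over 30 libraries and 0.34 without 24 h culture. With ranks 1 to 4 not identified, ND3 and ND5 alone do not show how other mitochondrial transcripts followed the members.

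Genes of energy metabolism gave a mixed picture around the members, in a list of 9 made up of ND3 and ND5 of complex I, the mitochondrial import factor TIMM10, the mitochondrial ribosomal proteins MRPS18A and MRPS28, and LDHA, ALDOC, PFKFB3 and SLC2A1 of sugar uptake and glycolysis. The study had listed them from its own tests on these or companion libraries, so their counts are not independent evidence of a direction. After 24 h of LY411575 1 of 9 rose and 3 fell, with a median log2 fold change of -0.15, beside 1.55% of all transcripts higher and 1.85% lower and a median of -0.03. ND3 fell by 0.99 ± 0.20 (edgeR adjusted p = 0.0228), ND5 by 0.86 ± 0.17 (edgeR adjusted p = 0.0192) and PFKFB3, which raises the main activator of glycolysis, by 2.26 ± 0.44 (edgeR adjusted p = 0.0200), and MRPS18A rose by 0.60 ± 0.11 (edgeR adjusted p = 0.0140). In refits chosen after seeing the data, the calls of ND3, ND5 and MRPS18A were lost without embryo 32 and also without embryo 34. PFKFB3 stayed called without embryo 32 (edgeR adjusted p = 0.0312), embryo 33 (edgeR adjusted p = 0.0193) or embryo 34 (edgeR adjusted p = 0.0387). Its levels were low, 0.796 to 2.49 TPM with LY411575 and 6.43 to 15.9 TPM with DMSO at 24 h. Without embryo 33 edgeR called 1 of the 9 higher and 3 lower. ND3 went against the members between DMSO 24 h and in ovo 24 h: it was 2692 to 3095 TPM in culture and 1184 to 1680 TPM in the 6 left in ovo otocysts, a log2 fold change of 0.95 ± 0.14 (edgeR adjusted p = 0.000222). In that comparison 1 of 9 was higher and 4 were lower (ND5, LDHA, ALDOC and TIMM10), beside 16.4% of all transcripts higher and 15% lower, and the counts were 1 and 4 without each of the 9 embryos in turn. In the 3 in ovo treatment comparisons 0 of 9 were called, beside 0% of all transcripts in each. After 6 h of LY411575 it was 0 of 9 as well, beside 0.0786% of all transcripts.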

How the data were processed

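The authors quantified 28756 transcripts of GRCg6a with kallisto and deposited estimated counts and TPM for each otocyst, after demultiplexing with bcl2fastq. Columns of length and effective length were read too. Estimated counts were rounded and tested with edgeR 4.0.16 in R 4.3.3 (TMM scaling, filterByExpr with a minimum count of 10, quasi-likelihood F test, Benjamini-Hochberg adjustment over all transcripts tested, threshold 0.05). One model of all 30 libraries with a term for each embryo and for each of 5 treatments gave the right against left comparisons (21637 transcripts, 10 residual degrees of freedom), and a model of the 15 left otocysts gave those of culture and age (20710 transcripts, 10 residual degrees of freedom). TPM served for levels. limma 3.58.1 and DESeq2 1.42.0 were alternatives, and the tests were tried on simulated counts. Shares of counts were compared by exact two-sided permutation. Python 3.11.15 did the rest.

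The labels name the embryo of each otocyst, which pairs left and right, and the correlation of paired deviations from the group means was 0.0211 to 0.342, above 0.1 in 10 of 15 pairs. Depth was 8749489 to 18224622 counts, and intervals cover counting error only. Replicates came from separate embryos. The members were given by identifier, the energy genes were those the study's tables pair with names, and the transcripts most like the members were the 10 with the highest Pearson correlation of log2 CPM (prior count 2) with the members' mean. Members and lists were chosen with earlier results of these data known. The markers ENG, NT5E and THY1 were not analysed here.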

Additional observations from a re-analysis of the deposited data

How the results depend on the processing

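Of the results that count members or compare shares, 233 values under the alternatives stayed and 13 moved. In the comparisons where edgeR called 0 members in the main fit, it called at most 0.111% of all transcripts. A count that stayed at 0 there says little about stability. A count stayed if it equalled the main count or lay within 1.5 times it. A share comparison or ratio stayed if its log2 value differed from the main one by less than the SD between embryos. Of the single-member results 1012 kept their call or lack of one, 26 lost the call and 12 gained it. No called result changed sign. For LY411575 at 24 h (4 members called) the count was 2 with no filter on low counts, 2 with no replicate block, 0 in a fit of that set alone with the replicate block, 0 without embryos 32 and 34 together (chosen after seeing the data), and 0 to 5 leaving out 1 embryo each. For the LY411575 change at 24 h minus 6 h (0 members) the count was 2 with the DESeq2 Wald test, beside 861 transcripts. It was 0 to 4 leaving out 1 embryo each. For DMSO against in ovo at 6 h (1 member) it was 0 to 1 and for DMSO against in ovo at 24 h (3 members) 3 to 4, leaving out 1 embryo each. The causes of these changes were not tested, and leaving out an embryo also leaves fewer embryos in the fit. COX3 after 24 h of LY411575 had log2 fold changes of -0.37 to 0.07 over 14 alternatives and was called in 0 of them. With 3 embryos a set, shares could not reach p below 0.25 within embryos or 0.1 between sets of 3.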
